A study of Drosophila melanogaster with 8 samples.

Results

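The 8 genes described here act at the surface of neurons or in neuronal signaling. They are the adenylyl cyclase gene *rut*, the cell recognition gene *caps*, the Robo receptor gene *lea*, the secreted patterning factor gene *sca*, the sleep gene *qvr*, the syndecan gene *Sdc*, the receptor kinase gene *Ddr* and the adhesion gene *fas*. They were chosen by name from the genes near regions of dFOXO enrichment, with the enrichment ratios of these data already known, so the ratios below are a description and carry no test. Of 2801 genes in the lists of both genotypes, these are 8. The *chico* list of 2042 genes held 7 of them, the list of 1012 genes after IPC ablation held 6, and 5 were in both. *rut* and *caps* were in the *chico* list alone, and *Ddr* was in the IPC list alone.

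Chromatin came from whole female flies aged 15 days of 2 genotypes with reduced insulin signaling. One genotype carried a single mutant copy of *chico*, the insulin receptor substrate gene (*y1; cn1 chico1/cn1; ry506*), so they also carried the eye and body color markers of that stock. In the other flies the insulin-producing cells (IPCs) of the brain were partially ablated in the adult by the cell death gene *reaper* (*UAS-rpr*), driven by the RU486-inducible *Dilp2-GS-Gal4* and induced by feeding RU486 for 15 days. Each genotype had 2 samples of DNA precipitated with an antibody to dFOXO (ChIP) and 2 of input DNA, each from pooled flies, and reads of the replicates were pooled by the authors before regions were called. No flies with normal insulin signaling were among the samples, so each ratio compares ChIP with input of the same genotype.

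dFOXO is the fly FOXO transcription factor, which is kept out of the nucleus when insulin signaling is active and enters it when signaling falls. Axon guidance genes encode the receptors, ligands and surface proteins by which growing axons choose a path and a partner, and many of them stay in use in the adult nervous system. Whole flies mix neurons with many other cells, so strong binding in few cells and weak binding in many cannot be told apart here.

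Each region has 1 number of ChIP tags and 1 number of input tags that the authors scaled to the ChIP library. The ratio is ChIP tags over scaled input tags, and its 95% exact (Clopper-Pearson) interval covers counting error only, since no replicate values were analysed. The median ratio was 1.10 over 1331 *chico* regions (range 1.07 to 2.52) and 1.02 over 763 regions after IPC ablation (range 1.00 to 1.28). Regions were narrow in *chico* (median width 1395 bp) and broad after IPC ablation (median width 6569 bp). Each list holds 1 row per gene, so 0 genes had more than 1 region in a list. Further regions in or near a gene can be paired with other genes. Coordinates are those of the deposited lists, whose genome build is not given in the sources used here.

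In *chico* the highest ratios of the group were at *rut*, *caps* and *lea*, where a narrow region lay across the 5' end of the gene and ChIP tags were between 1.70 and 1.96 times the input. *sca* and *qvr* had lower ratios of 1.22 and 1.18, and *fas* and *Sdc* were close to the lowest ratio in the list. The interval lay above 1 for 5 of the 7 genes (*rut*, *caps*, *lea*, *sca* and *qvr*), beside 41.6% of all *chico* regions. This contrast chose the genes, and the count is given for description only. The median ratio of the 7 genes was 1.22, beside 1.10 for all regions. At the Bonferroni level over all regions the interval stayed above 1 for 3 of the 7, *rut*, *caps* and *lea*, beside 2.78% of all *chico* regions. With input tags raised by 5% it lay above 1 for 5 of the 7, beside 10.6% of regions, and with input lowered by 5% for 6, beside 97.8%.

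**Figure D1:**
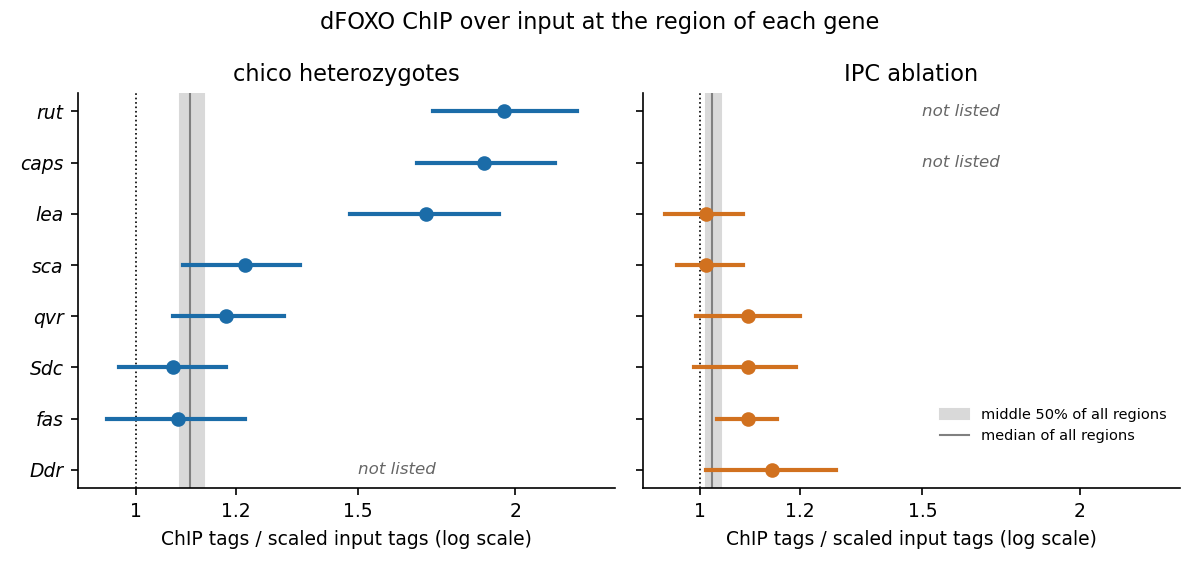
Ratio of ChIP tags to scaled input tags (points, log scale) with its 95% exact interval (lines) at the region of each gene in *chico* heterozygotes (left) and after IPC ablation (right); the gray band holds the middle 50% of all regions of the list the gray line is their median and the dotted line marks equal tags. In *chico*, *rut*, *caps* and *lea* stand at 1.96, 1.89 and 1.70, while after IPC ablation the highest of the group is *Ddr* at 1.14.

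*rut* (rutabaga, FBgn0003301) encodes a calcium- and calmodulin-responsive adenylyl cyclase known for its part in learning and memory. Its *chico* region (X, 14719826 to 14720463) contained 660 ChIP tags where scaled input gave 337, an excess of 323 tags and a ratio of 1.96 (interval 1.72 to 2.24). This was the third highest ratio among 1331 regions and the second highest among 275 on the X. The region was 638 bp wide and ran from 525 bp upstream of the 5' end of the gene to 112 bp inside it. A separate region paired with CG14408 lay 3129 to 4602 bp upstream of *rut*, with 778 ChIP and 657 scaled input tags and a ratio of 1.19 (interval 1.07 to 1.32). After IPC ablation *rut* was not listed, and the nearest listed region began 16.3 kb beyond its 3' end, with a ratio of 1.04 (interval 0.923 to 1.18).

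*caps* (capricious, FBgn0023095) encodes a transmembrane protein with leucine-rich repeats by which axons recognize their targets. At its region (3L, 13221439 to 13222128), 701 ChIP tags stood against 370 scaled input tags, a ratio of 1.89 (interval 1.67 to 2.15). No other of the 152 *chico* regions on 3L had a higher ratio. The region was 690 bp wide and almost centered on the 5' end, from 350 bp upstream to 339 bp downstream. The nearest other *chico* region was 100 kb from the gene. *caps* was absent from the IPC list, whose nearest region was 76.3 kb from the gene, so tag numbers at its 5' end after IPC ablation were not analysed here.

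*lea* (leak, also called *robo2*, FBgn0002543) encodes a Robo receptor for the repellent Slit and helps to set how far from the midline an axon runs. Its *chico* region (2L, 1420170 to 1420813) had 596 ChIP and 352 scaled input tags, a ratio of 1.70 (interval 1.48 to 1.94), the highest of 253 regions on 2L. It was 644 bp wide, from 364 bp upstream of the 5' end to 279 bp inside. After IPC ablation the region paired with *lea* (2L, 1371910 to 1377784) was at the other side of the gene, past the 3' end. It lay 42665 to 48539 bp from the 5' end of this gene of 40364 bp. The listed distance of 4408 bp from the gene is that of a point within the region. ChIP gave 1488 tags there and scaled input 1477, a ratio of 1.01 (interval 0.937 to 1.08). The 2 regions were 42.4 kb apart, and an excess of ChIP over input past the 3' end was not detectable at this depth.

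The regions of *rut*, *caps* and *lea* were among the narrowest in *chico*, with 0.751% to 0.977% of regions narrower. Only 14 *chico* regions were up to 700 bp wide, and 9 of these had a ratio over 1.5, among 17 such regions in the whole list. Over all *chico* regions the ratio was weakly related to the width (Spearman's rho = -0.151, a correlation across regions of the same pooled libraries). Tag density was 1034, 1016 and 925 ChIP tags per kb at *rut*, *caps* and *lea*, beside a median of 488 over all *chico* regions. Their scaled input density was 528, 536 and 547 tags per kb, also above the median of 441. The high ratios at these genes therefore came with many ChIP tags and not with few input tags.

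**Figure D2:**
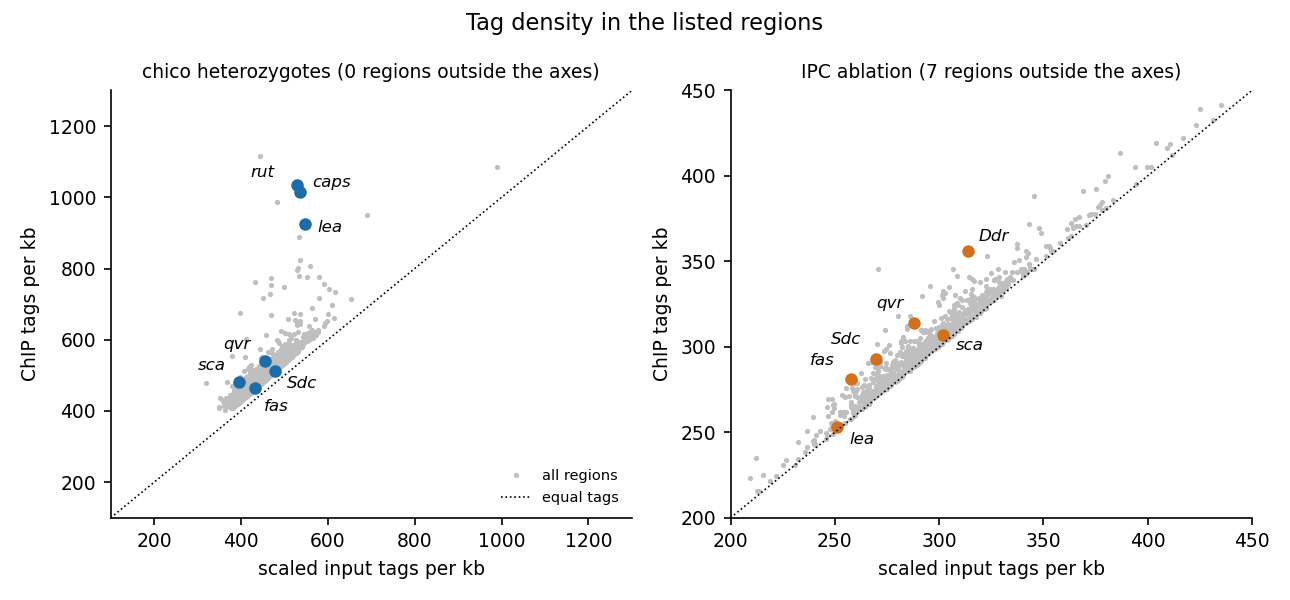
ChIP tags per kb against scaled input tags per kb for all regions of each list (gray) and for the regions of the 8 genes (colored), with the line of equal tags; the axes differ between the panels and 7 IPC regions fall outside them. *rut*, *caps* and *lea* lie far above the line at input densities between 528 and 547, whereas *sca* lies at an input density of 396, where 10.3% of regions are lower.

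*sca* (scabrous, FBgn0003326) encodes a secreted protein that spaces neural precursors and acts with Notch signaling. Its *chico* region (2R, 8667377 to 8669058) had 809 tags in ChIP against 666 in scaled input, a ratio of 1.22 (interval 1.09 to 1.35), rank 63 in the list. It was 1682 bp wide and reached from 672 bp upstream of the 5' end to 1009 bp inside. ChIP density was 481 tags per kb, slightly under the list's median, and input density was 396 tags per kb, with 10.3% of regions lower. At *sca* the ratio thus came with low input, unlike at *rut*, *caps* and *lea*. After IPC ablation the region of *sca* (2R, 8667087 to 8674737) was 7651 bp wide and contained the whole *chico* region, which made up 22.0% of it. There 2346 ChIP tags stood against 2312 scaled input tags, a ratio of 1.01 (interval 0.958 to 1.08). The paper tested *sca* among its candidates and reported by ChIP-PCR significant dFOXO enrichment at all of them in both genotypes relative to wildtype. It also classed *sca* as induced by dFOXO, from mRNA of *chico* null flies and *chico foxo* double mutants. Wildtype flies were not among these samples, so that comparison could not be made here. *sca* was the only one of the 5 shared genes whose regions overlapped, and the IPC tags within the narrower *chico* interval were not analysed here. How often regions overlap over all 253 genes in both lists was not counted, so this count is a description only.

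*qvr* (quiver, also called *sleepless*, FBgn0260499) encodes a small membrane-anchored protein of the Ly6 family that acts on the Shaker potassium channel and promotes sleep. Its *chico* region (2R, 7334738 to 7336258) lay within the gene on the 3' side, 4707 to 6227 bp from the 5' end. There were 821 ChIP tags against 694 in scaled input, a ratio of 1.18 (interval 1.07 to 1.31), and densities of 540 and 456 tags per kb were both above the medians of the list. After IPC ablation *qvr* was paired with a region upstream (2R, 7319446 to 7322341), with its far edge 10585 bp before the 5' end. This region had 910 ChIP and 834 scaled input tags, a ratio of 1.09, with an interval that reached down to 0.992. The list placed CG7777 first for it, at 3221 bp, and *Drip* at 3384 bp, so it lay closer to these genes than to *qvr* at 9501 bp. Among the 8 genes, *qvr* was the only one that shared a region with other listed genes.

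*Sdc* (Syndecan, FBgn0010415) encodes a transmembrane heparan sulfate proteoglycan that takes part in Slit and Robo signaling, and *fas* (faint sausage, FBgn0000633) encodes an immunoglobulin-family protein needed in the embryonic nervous system. In *chico*, *Sdc* (2R, 17296089 to 17297706) had 828 ChIP and 774 scaled input tags, a ratio of 1.07 (interval 0.969 to 1.18), rank 1321 of 1331. The region lay deep in the gene, at 82.0% of its length. At *fas* (2R, 9531436 to 9532583) 534 ChIP and 497 scaled input tags gave a ratio of 1.08 (interval 0.949 to 1.22), in a region 20843 to 21990 bp inside the gene. For both genes an excess over input in *chico* was not detectable at this depth.

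After IPC ablation the order of the group was different. *Ddr* had the highest ratio, *qvr*, *fas* and *Sdc* were each close to 1.09, and *sca* and *lea*, which had higher ratios in *chico*, were at 1.01. The interval lay above 1 for 2 of the 6 genes, *Ddr* and *fas*, beside 9.57% of all IPC regions, and again this contrast chose the genes. The median ratio of the 6 genes was 1.09, beside 1.02 for all regions. With input tags raised by 5%, 0 of the 6 intervals lay above 1, beside 0.524% of all IPC regions, and with input lowered by 5%, 5 did, beside 63.8%. At the Bonferroni level 0 of the 6 did, again beside 0.524%.

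*Ddr* (Discoidin domain receptor, FBgn0053531) encodes a receptor tyrosine kinase whose mammalian relatives bind collagen. Its IPC region (2L, 6310233 to 6311994) had 628 tags in ChIP against 553 in scaled input, a ratio of 1.14 (interval 1.01 to 1.28). This was the third highest of 763 ratios and the highest of 139 on 2L. The region was 1762 bp wide, narrow for this list, and lay inside the gene 57110 to 58871 bp from the 5' end, at 83.7% of the gene's length. Densities were 356 ChIP and 314 scaled input tags per kb, both above the medians of 301 and 293. *Ddr* was not in the *chico* list, whose nearest region lay 11.2 kb past its 3' end with a ratio of 1.08 (interval 1.01 to 1.16).

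The IPC region of *fas* (2R, 9505316 to 9513845) was 8530 bp wide and ran across the 5' end, from 5277 bp upstream to 3252 bp inside. It had 2397 ChIP and 2202 scaled input tags, a ratio of 1.09 (interval 1.03 to 1.15), at a low density of 281 ChIP and 258 scaled input tags per kb. A further region of 31077 bp lay inside *fas* but was paired with CG13337, CG18368 and CG6209, with a ratio of 1.07 (interval 1.04 to 1.11). Another, paired with CG6280, lay over the 3' end of *fas* with a ratio of 1.03 (interval 0.977 to 1.08). At *Sdc* the IPC region (2R, 17357389 to 17360540) lay 8140 to 11291 bp inside the gene with 923 ChIP tags against 850 in scaled input, a ratio of 1.09 (interval 0.988 to 1.19).

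**Figure D3:**
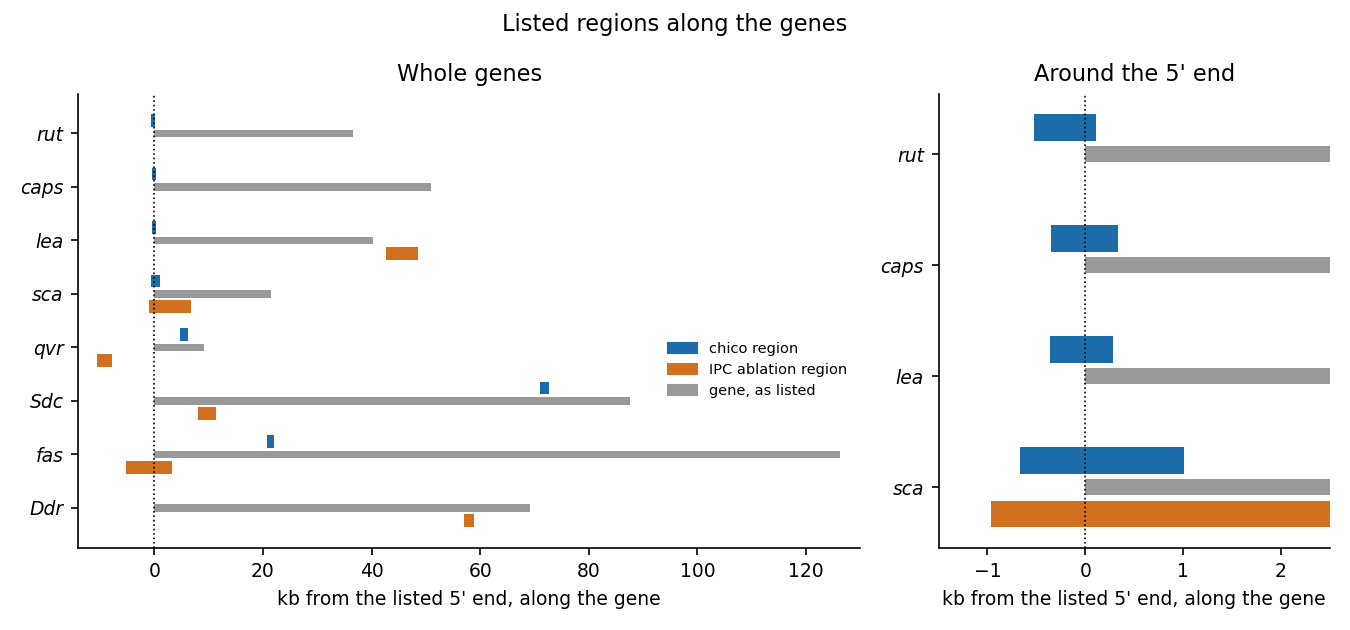
Position of the listed region of each gene in *chico* (blue) and after IPC ablation (orange) along the gene (gray), in kb from the listed 5' end with negative values upstream; the left panel shows whole genes and the right panel the 5' ends of 4 genes. The *chico* regions of *rut*, *caps*, *lea* and *sca* lie across the 5' end. For 4 of the 5 genes in both lists the regions of the genotypes lie apart, and the share over all shared genes was not counted.

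The genes differed in where their region lay. In *chico* the region reached over the 5' end at 4 of the 7 genes, with ratios of 1.22 to 1.96, while the other 3 (*qvr*, *fas* and *Sdc*) had ratios of 1.07 to 1.18. Over all *chico* genes the region reached over the 5' end at 16.9%, and the median ratio was 1.11 at these and 1.10 at the rest. After IPC ablation, where regions were broader, 2 of the 6 regions reached over the 5' end (*sca* and *fas*), beside 50.6% of all genes in the list. The 8 genes were long, from 9.08 kb at *qvr* to 126 kb at *fas*, and all were longer than the median listed gene, which was 4.52 kb in *chico* and 7.99 kb after IPC ablation. The part of gene length in the listing of these genes was not tested.

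For the 5 genes in both lists the values of the genotypes are given side by side, because the lists have their own regions and their own scaling of input. The ratio was higher in *chico* at *lea* (1.70 and 1.01), *sca* (1.22 and 1.01) and *qvr* (1.18 and 1.09), with intervals that overlapped at *qvr*. It was higher after IPC ablation at *Sdc* (1.07 in *chico* and 1.09) and *fas* (1.08 in *chico* and 1.09), with intervals that overlapped at both. Of all 253 genes in both lists, 250 had the higher ratio in *chico*, and the other 3 were *Sdc*, *fas* and the homeobox gene *oc* (1.12 in *chico* and 1.21 after IPC ablation). The lowest listed ratio was 1.07 in *chico* and 1.00 after IPC ablation, and the ranges of the lists differ in the same direction. Gaps between the regions were 42.4 kb at *lea*, 12.4 kb at *qvr*, 59.7 kb at *Sdc* and 17.6 kb at *fas*. At *sca* the regions overlapped, with midpoints 168 bp (*chico*) and 2863 bp (IPC ablation) inside the 5' end. The listed points at *sca* were 272 bp apart, but the point in the IPC list is not the midpoint of its region.

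By distance between pairs of log2 ratios over the 2 lists, the gene most like *lea* among 252 other shared genes was *dally*, which encodes a heparan sulfate proteoglycan, at 1.59 in *chico* and 1.01 after IPC ablation (distance 0.092). *sca* was closest to CG42339, at 1.21 and 1.00 (distance 0.018), and *qvr* to the chromatin gene *Su(z)2*, at 1.19 and 1.10 (distance 0.015). *Sdc* and *fas* were each closest to the other (distance 0.008). These likenesses rest on only 2 values per gene.

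Other genes of the same roles were looked up in 8 lists with 123 genes beside the 8. These lists were written by hand with earlier results of these data known, so the shares listed are a description only. In *chico*, 43 of these (35.0%) were listed, with a median ratio of 1.11, and the interval lay above 1 for 19 of the 43 (44.2%), beside 40.0% over all *chico* genes, and for 2 of the 43 with input raised by 5%, beside 10.6% of all *chico* regions. After IPC ablation, 50 (40.7%) were listed, with a median ratio of 1.02, and the interval lay above 1 for 5 of the 50 (*Shal*, *mam*, *Alk*, *hbs* and *fred*), beside 10.1% of all IPC genes, and for 0 with input raised by 5%, beside 0.524% of all IPC regions. Of 13951 protein-coding genes in the Release 6 gene table, 13.8% were matched to the *chico* list and 6.57% to the IPC list. The listed genes of these roles had median lengths of 33.2 kb in *chico* and 38.4 kb after IPC ablation, far above the medians of all listed genes, and the part of length was not tested here either.

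**Figure D4:**
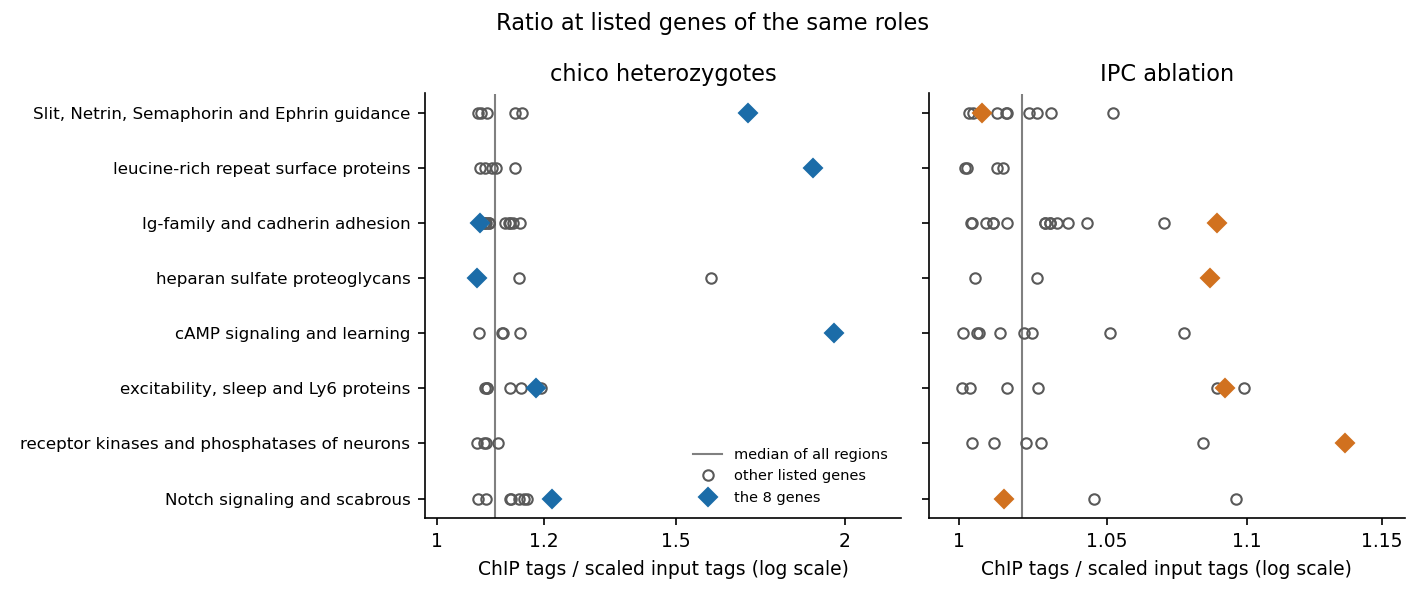
Ratio of ChIP tags to scaled input tags (log scale, with different ranges) at every listed gene of 8 role lists in *chico* heterozygotes (left) and after IPC ablation (right); diamonds mark the 8 genes, open circles the other genes and the gray line the median of all regions. In *chico* the other genes lie at up to 1.19 except for *dally* at 1.59, and after IPC ablation *Ddr* at 1.14 is the highest.

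Beside *lea*, the Slit, Netrin, Semaphorin and Ephrin list had 5 of 19 genes in *chico* and 9 of 19 after IPC ablation. The interval lay above 1 in *chico* for 2 of these, the Ryk-family receptor genes *Drl-2* (1.16, interval 1.04 to 1.28) and *dnt* (1.14, interval 1.02 to 1.28). Both belong to none of the families that name this hand-written list. For the other 3 listed *chico* genes the interval did not lie above 1. None of the 9 IPC genes (0) had such an interval, and the highest was *sli*, the gene for the ligand of Robo receptors, at 1.05 (interval 0.984 to 1.12). Beside *caps*, 5 of 13 genes for leucine-rich repeat proteins were in the *chico* list at ratios of 1.08 to 1.14, led by *kek2*, and 4 were in the IPC list at 1.00 to 1.01.

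Beside *fas*, 10 of 28 immunoglobulin-family and cadherin genes were in the *chico* list, with ratios of up to 1.15. Intervals above 1 were found at *kirre* (1.15, interval 1.02 to 1.30), a gene for an adhesion protein of muscle founder cells, at the atypical cadherin gene *stan* (1.14, interval 1.02 to 1.27) and at *Fas2* (1.13, interval 1.01 to 1.27), which holds axons in bundles. After IPC ablation 14 of the 28 were listed, and *hbs*, for a binding partner of the Kirre protein, was highest at 1.07 (interval 1.02 to 1.13). Of the proteoglycan genes beside *Sdc*, *dally* had 369 ChIP and 232 scaled input tags in *chico* (ratio 1.59, interval 1.35 to 1.88) and *dlp* had a ratio of 1.15 (interval 1.02 to 1.29), beside 1.07 (interval 0.969 to 1.18) at *Sdc*. After IPC ablation *trol*, the perlecan gene, was at 1.03 (interval 0.929 to 1.13) and *dally* at 1.01 (interval 0.938 to 1.08), beside 1.09 (interval 0.988 to 1.19) at *Sdc*, and the 3 intervals overlapped.

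In the cAMP and learning list, 4 of 17 genes beside *rut* were in *chico* and 8 of 17 after IPC ablation. The highest were *Oamb*, an octopamine receptor gene, at 1.15 in *chico* (interval 1.03 to 1.28) and *Pka-R1*, for a regulatory subunit of protein kinase A, at 1.08 after IPC ablation (interval 0.989 to 1.17). The *chico* ratio of *rut*, at 1.96, was well above those of the other genes of this list, but *rut* was chosen with its ratio known. Beside *qvr*, the potassium channel gene *eag* had a *chico* ratio of 1.19 (interval 1.06 to 1.34), the sodium channel gene *para* 1.15 (interval 1.03 to 1.29) and the calcium channel gene *cac* 1.13 (interval 1.02 to 1.25). After IPC ablation the potassium channel gene *Shal* had a ratio of 1.10 (interval 1.02 to 1.19) and *Shab* 1.09 (interval 0.972 to 1.22). *Sh*, which encodes the Shaker channel itself, was at 1.03 after IPC ablation (interval 0.916 to 1.15).

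Among receptor kinases and phosphatases beside *Ddr*, 5 of 15 genes were listed after IPC ablation, with *Alk* at 1.08 (interval 1.02 to 1.15). In *chico* 4 of the 15 were listed, with intervals above 1 for 2, *Ret* at 1.11 (interval 1.01 to 1.21) and *Lar*. Of 9 Notch pathway genes beside *sca*, 7 were in the *chico* list at ratios of 1.07 to 1.17, and the interval lay above 1 for 5 of them (*neur*, *kuz*, *Ser*, *Gp150* and *N*). The highest were *neur*, a ubiquitin ligase gene of Notch signaling, at 1.17 (interval 1.05 to 1.29) and *kuz*, for the protease that cleaves Notch, at 1.16 (interval 1.03 to 1.30). After IPC ablation 2 of the 9 were listed, *mam*, the Mastermind coactivator gene, at 1.10 (interval 1.01 to 1.18) and *kuz* at 1.05 (interval 0.931 to 1.17).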

How the data were processed

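Each list came from the pooled reads of 2 replicates, which the authors aligned with Bowtie and called with PeakSeq at an FDR of 0.01 (the submitters' processing notes also name CASAVA 1.6). The deposited ChIP tags are counts per region. The authors' input tags are a score, since input reads were multiplied by a factor and rounded up. The deposited enrichment values give this ratio with scaled input tags before rounding. The lists also hold the authors' p-values, which were not used. Regions with several genes were counted once. Exact 95% intervals (Clopper-Pearson) took ChIP tags as a share of all tags of a region. Their code was checked only on binomial counts, which is the model of the interval itself. Those counts had no scaling of input, spread between replicates or selection of regions. Positions run from the listed 5' end of the gene. For these genes the listed center was the midpoint of the region in *chico*. In the IPC list it was a listed position within the region that could lie away from the midpoint. The members and gene lists were chosen with earlier results of these data known. Named genes are the 8 members, genes that share their regions, for each shared member the gene nearest in log2 ratio, and up to 3 other genes per role and list with the largest ratios. The genes *oc*, *fred*, *Lar*, *Gp150* and *N* and the regions near the members fall outside this rule and were named after their values were seen. Role names were matched through the Release 6 gene table. Tags per region ranged from 347 to 2658 ChIP tags in *chico* and from 523 to 34623 after IPC ablation. Software was SciPy 1.17.1 with NumPy 2.4.6, pandas 2.3.3, Matplotlib 3.10.9 and Python 3.11.15.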

Additional observations from a re-analysis of the deposited data

How the results depend on the processing

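No paired analysis was possible because the lists used here give 1 pooled ChIP and 1 pooled input value per region, so no replicate was left out either. The reads of the separate replicates were not analysed here. With intervals at the Bonferroni level, 3 *chico* members (*rut*, *caps* and *lea*) and 0 IPC members had an interval above 1, in place of 5 and 2, beside 2.78% and 0.524% of all regions. With input tags lowered by 5%, 5 IPC members did so, beside 63.8% of all IPC regions, and with input raised by 5%, 0 did, beside 0.524%. Counts of *chico* members under these 2 scalings, and counts in both lists from unscaled input counts, stayed within 1.5 times the reported ones. From unscaled input counts, 5 *chico* members had an interval above 1, beside 615 of 1331 regions. After IPC ablation 3 members did (*Ddr*, *qvr* and *fas*), beside 95 of 763 regions, so *qvr* was added under this setting. For the other genes of the role lists, alternatives chosen after seeing the data gave 43 in *chico* and 28 after IPC ablation with lowered input (beside 97.8% and 63.8% of all regions), and 2 and 0 with raised input (beside 10.6% and 0.524%), in place of 19 and 5. A listed center within 5 kb of the 5' end left 4 *chico* and 2 IPC members, and a ratio of at least 1.2 left 4 and 0. Listed centers are not the same measure in both lists, since those of the IPC list need not be midpoints. A listed center within 1 kb left 4 *chico* members and 1 IPC member, beside 24.8% of all *chico* genes and 26.8% of all IPC genes. No IPC member (0 of 6) had its region's midpoint within 500 bp of the 5' end, and 4 *chico* members did. Shares over all genes were not counted for the limits of 5 kb, 500 bp and a ratio of 1.2. Overlap between the lists was found at 1 gene, *sca*, under each definition tried, and the share over all shared genes was not counted. Ratios to the rounded input moved by at most 0.00458. The planned motif search was not run, since it needs sequence not used here.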
